A study of Mus musculus with 7 samples.

Results

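The αβ path after β selection was examined by setting 1 library of DN4 γδ− thymocytes against 1 library of DN3b γδ− thymocytes, both from wild-type mice. Barcodes were kept when they had at least 1000 detected genes, at most 10% of their unique molecular identifiers (UMIs, each standing for 1 captured RNA molecule) from mitochondrial genes, and at most 1 UMI of the B-cell genes Cd79a, Cd79b and Ms4a1 together. This left 11986 barcodes of the DN4 γδ− library and 17959 of the DN3b γδ− library, 29945 of the 66446 that passed the same rule in the 7 libraries of the series. Thymi of C57BL/6 mice aged 6 to 8 weeks, of both sexes, had been pooled and depleted of CD4+ and CD8+ cells. The wild-type subsets were sorted from this pool, so both libraries come from 1 pool of many animals, and each is 1 droplet run. Live NK1.1− double-negative (DN) cells without surface γδ TCR were sorted as CD44−CD25+CD71+ for DN3b γδ− and as CD25−CD71+ for DN4 γδ−. The study's gating description gives CD44+ for DN4 γδ− while its introduction defines DN4 as CD44−, so the CD44 gate of that library is uncertain. Before loading, 500 splenic B cells had been added to each subset, and they serve below as cells of the same kind in both libraries. CD25 is the product of Il2ra, and CD4 and CD8 are those of Cd4, Cd8a and Cd8b1, so the levels of these 4 genes were in part set by the sort.

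Double-negative thymocytes rearrange the TCR β, γ and δ genes at the DN3a stage. A cell that makes a working β chain pairs it with the invariant pre-TCR α chain, and the signal of this pre-TCR, together with Notch, drives a burst of division called β selection. DN3b cells are early in that burst and still carry CD25. DN4 cells have lost it, go on dividing, and next pass through an immature CD8 single-positive stage to the CD4+CD8+ double-positive (DP) stage, where the TCR α gene is rearranged.

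Both sides were deeply sequenced, with 241543178 UMIs in the kept barcodes of DN4 γδ− and 338002035 in those of DN3b γδ−, and a median of 19177 and 17203 UMIs per barcode. The deposited matrices held 15916 and 20946 barcodes, of which the filter stated by the study (200 genes and 15% mitochondrial UMIs) would leave 13617 and 20249. Among barcodes with enough genes, the mitochondrial limit removed 11.4% in DN4 γδ− and 1.09% in DN3b γδ−. The 2 libraries shared 60 kept barcodes, 0.501% of the smaller one, and across the 21 pairs of libraries this share ran from 0.122% to 0.671%. T-cell markers summed to 5540 CPM (counts per 1000000 UMIs) in DN4 γδ− and 5699 CPM in DN3b γδ−, with 3 of 10 higher in DN4 γδ−. Erythroid markers summed to 22.6 and 3.89 CPM, with 4 of 4 higher in DN4 γδ−. B-cell markers summed to 279 and 245 CPM, of which Ighm gave 233 and 214, and myeloid markers to 4.60 and 3.88 CPM. Of the NK markers only Gzma (845 and 676 CPM) and Nkg7 were above 1 CPM, and Klrb1c and Ncr1 had 1 and 0 UMIs in DN4 γδ− and 3 and 0 in DN3b γδ−. Among the plasmacytoid markers, Siglech had 2 UMIs and 1 UMI.

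With 1 library per side, the spread between replicates is unknown and no test of the difference was possible. Differences are therefore given as the log2 ratio of CPM, DN4 γδ− over DN3b γδ−, with an exact 95% binomial interval in brackets that covers counting error only, and a gene counts as changed when it differs by at least 2-fold. Of 5131 genes with at least 20 CPM in 1 of the 2 libraries, 22 (0.429%) were higher and 35 (0.682%) were lower in DN4 γδ− by that measure. The split depended on the scaling, with 29 higher and 26 lower under TMM factors and 38 higher and 39 lower when mitochondrial and ribosomal-protein genes were left out of the total. At 1.5-fold, 82 genes (1.60%) were higher and 321 (6.26%) lower. The 2-fold shares are so small that a short list is likely to hold 0 changed genes. A count of 0 therefore sets no list apart. The median over all 5131 genes was -0.11, and 3350 of them lay below 0. Nearest to the 2-fold line were Gm42418 (1.02) inside and Med30 (0.99) outside on the higher side, and Mapkapk2 (-1.0014) inside and Kctd2 (-0.9993) outside on the lower side. One of the 22, Pth, had 0 UMIs in DN3b γδ− and a log2 ratio of at least 11.28 against a floor of 3 UMIs in that library. It came almost wholly from a single barcode, is left out of the ranking and is described with the other observations. The most strongly raised of the other genes were Hist1h2ap (3.41), Cd8b1 (3.09), Gstp1 (2.50) and Gm10076 (2.46), and the most strongly lowered were Il2ra (-3.01), Gm4632 (-2.19) and Nkg7 (-2.07).

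**Figure D1:**
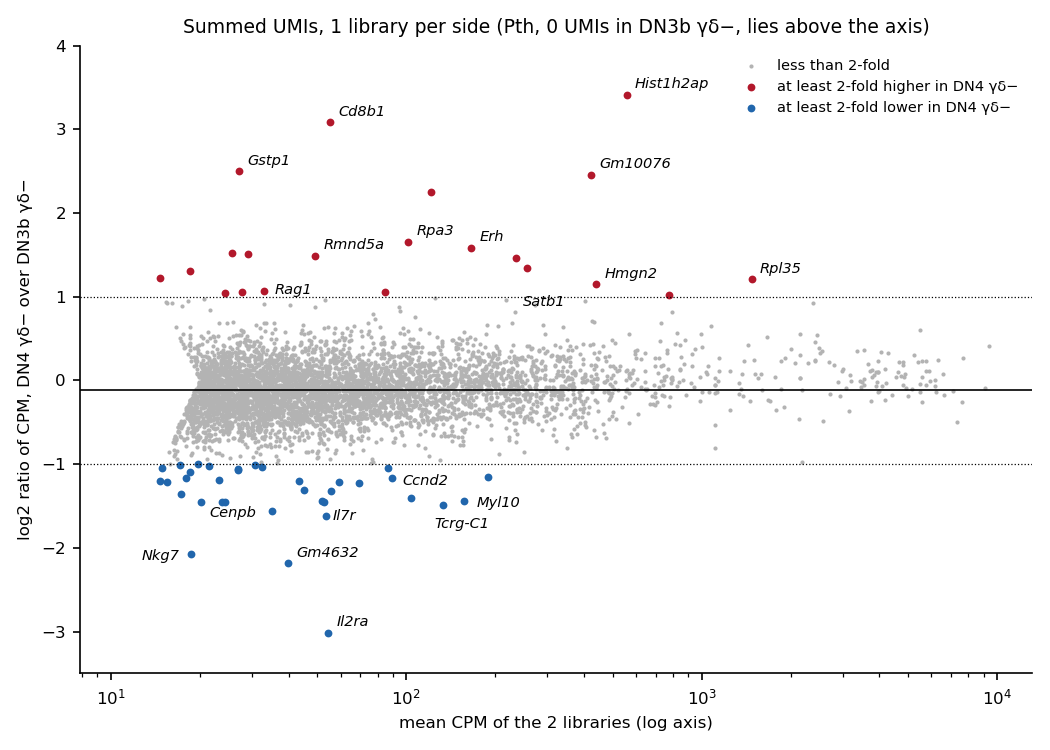
Log2 ratio of CPM, DN4 γδ− over DN3b γδ− (y axis), against the mean CPM of both libraries (x axis, log scale) for the 5131 genes compared. Each point is a gene from summed UMIs, red points are the genes at least 2-fold higher (21 shown, Pth is off the axis), blue points the 35 at least 2-fold lower, dotted lines mark 2-fold and the solid line the median of -0.11. Most genes lie between the dotted lines, with Hist1h2ap and Cd8b1 at the top and Il2ra at the bottom.

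Genes of the following CD8+ and DP stages were compared first. Cd8b1 (ENSMUSG00000053044, mm10 chromosome 6, 71322788 to 71337494) encodes the CD8 β chain and stood at 98.6 CPM in DN4 γδ− and 11.6 CPM in DN3b γδ−, which is 8.50-fold higher (log2 ratio 3.09, 3.04 to 3.14). With every barcode thinned to 5000 UMIs, 32.6% (31.8 to 33.5, exact Clopper-Pearson) of 11558 DN4 γδ− barcodes and 4.65% (4.35 to 4.98) of 17470 DN3b γδ− barcodes had a Cd8b1 UMI. Thinning left out 428 and 489 shallower barcodes, and with all UMIs the shares were 62.1% and 14.2%. In the other wild-type libraries Cd8b1 was lower than in either, at 1.22 CPM in DN3a, 1.05 CPM in DN3b γδ+ and 8.69 CPM in DN4 γδ+. Free RNA was read from the spiked B cells, which do not make Cd8b1. At 2000 UMIs, 3.54% of 113 B-like barcodes of DN4 γδ− had a Cd8b1 UMI against 17.0% of kept barcodes, and in DN3b γδ− 0 of 217 had one, which allows up to 1.38%, against 2.17%. The median depth before thinning was 3332 and 2418 UMIs for B-like barcodes, defined by at least 10 UMIs of the B-cell genes above and fewer than 10 of the T-cell markers.

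The partner chain Cd8a and the other co-receptor Cd4 were too low to enter the count. Cd8a stood at 7.92 and 1.63 CPM (log2 ratio 2.28, 2.14 to 2.42) and Cd4 at 0.658 and 0.127 CPM (2.37, 1.88 to 2.89). Cd8b1 therefore made up most of the co-receptor UMIs, whose sum was 107 CPM in DN4 γδ− and 13.4 CPM in DN3b γδ−.

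The recombinase genes had higher levels in DN4 γδ−, under 2-fold, although Rag1 passed it with TMM factors (1.02) and in S barcodes (1.21). Rag1 stood at 70.02 CPM in DN4 γδ−, 36.1 CPM in DN3b γδ− and 456 CPM in DN3a (log2 ratio 0.95, 0.92 to 0.99). A Rag1 UMI was found in 26.7% (25.9 to 27.6) and 15.4% (14.9 to 16.0) of barcodes thinned to 5000 UMIs. At 2000 UMIs 4.42% of B-like against 13.4% of kept barcodes had one in DN4 γδ−, and 0.461% against 7.22% in DN3b γδ−, and with the B-like CPM subtracted the Rag1 ratio was 0.55. Its partner Rag2 had 15.9 and 11.3 CPM (0.48). Ptcra, the pre-TCR α chain, was at 63.2 and 63.1 CPM (0.00, -0.03 to 0.03), after 412 CPM in DN3a, and Dntt, which adds bases at the joints, at 699 and 797 CPM (-0.19). The levels of Rag1, Rag2, Ptcra and Dntt in both γδ− libraries were all below those of DN3a.

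Of the 16 genes of the DP-stage list, 9 were compared and 0 passed 2-fold, and their median was 0.07 against -0.11 for all genes. They ran from -0.54 for Tespa1, an adaptor of TCR signalling, to Rag1. The chemokine receptor Ccr9 had 34.2 and 23.7 CPM (0.53), and Themis, needed for positive selection, 91.8 and 76.1 CPM (0.27, but -0.23 with the B-like CPM subtracted). Of the study's signature for the pre-TCR, 5 genes were taken here from its text (Cd8b1, Rag1, Ptcra, Spats2 and Dgkeos), which are not the whole signature, and they had a median of 0.44, with 1 of them, Cd8b1, past 2-fold. The study chose them on these same libraries, so this is not independent evidence of a direction.

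Among 16 T-lineage transcription factors compared, 0 passed 2-fold in either direction and the median was -0.07. Satb1, a chromatin organizer of thymocytes, was the highest at 297 and 169 CPM (0.81, 0.80 to 0.83), followed by Tcf7, which encodes TCF-1, at 678 and 460 CPM (0.56, but -0.32 after subtraction of the B-like log2 ratio). Lowest were Runx3 at 11.4 and 21.3 CPM (-0.90) and Sox4 at 253 and 378 CPM (-0.58). Gata3 (84.3 and 82.0 CPM) and Tcf3, the E protein gene, (70.5 and 70.3 CPM) differed by 0.04 and 0.00.

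Cytokine receptors gave some of the largest decreases. Il2ra (ENSMUSG00000026770, mm10 chromosome 2, 11642807 to 11693193) fell from 96.9 CPM in DN3b γδ− to 12.01 CPM in DN4 γδ−, which is 8.07-fold (log2 ratio -3.01, -3.07 to -2.96). Its level in DN3a was 612 CPM, and in DN3b γδ+ and DN4 γδ+ it was 30.4 and 4.21 CPM. At 5000 UMIs, 5.29% (4.89 to 5.71) of DN4 γδ− and 34.7% (34.02 to 35.4) of DN3b γδ− barcodes had an Il2ra UMI. At 2000 UMIs these shares were 2.35% and 17.7%, against 0 of 113 B-like barcodes in DN4 γδ−, which allows up to 2.65%, and 4.15% of 217 in DN3b γδ−. With so few B-like barcodes, the small DN4 γδ− share is not separable from background at this depth. Over all UMIs, the B-like level of Il2ra was 0% of the kept level in DN4 γδ− and 14.9% in DN3b γδ−. CD25 was a sorting marker, and the part of the gates in this decrease cannot be told apart from any other.

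Il7r, the IL-7 receptor α chain that sustains early thymocytes, was not used in the sort. It fell from 77.2 to 28.3 CPM (log2 ratio -1.45, -1.49 to -1.41), and its share of barcodes at 5000 UMIs was 29.4% (28.7 to 30.1) in DN3b γδ− and 12.02% (11.4 to 12.6) in DN4 γδ−. At 2000 UMIs 0.885% of B-like and 5.35% of kept barcodes had an Il7r UMI in DN4 γδ−, and 3.23% and 14.04% in DN3b γδ−. DN3a (89.6 CPM) and DN4 γδ+ (85.2 CPM) lay close to DN3b γδ−, and DN3b γδ+ (36.4 CPM) close to DN4 γδ−. The shared γ chain Il2rg stood at 42.9 and 41.3 CPM (0.06). Of the 5 cytokine receptor and Socs genes compared, Il2ra and Il7r fell and 0 rose, with a median of -0.47.

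Notch genes, which act with the pre-TCR, were mixed. Notch1 had 117 and 124 CPM (-0.08, and 0.16 once the GC trend of the B-like barcodes was subtracted), and its target Hes1 had 55.0 and 77.5 CPM (-0.49, -0.52 to -0.46). Below 20 CPM on both sides were the targets Dtx1 at 4.58 and 12.7 CPM (-1.47, -1.57 to -1.38) and Notch3 at 9.13 and 15.1 CPM (-0.72). Myc, also a Notch target, had 71.7 and 51.3 CPM (0.48). Of 6 genes compared, 1 passed 2-fold (Il2ra, itself listed as a Notch target) and the median was -0.04. All of Notch1, Notch3, Hes1, Dtx1 and Myc were higher in DN3a than in either γδ− library, from 70.5 CPM for Dtx1 to 562 CPM for Hes1.

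Among TCR γ genes, Tcrg-C1, Tcrg-C4 and Trgv2 fell past 2-fold. Trgv2 was under it in G1 (-0.76) and S (-0.995) barcodes and past it in G2M (-1.21). Tcrg-C1 (mm10 chromosome 13, 19214103 to 19217024) fell from 196 to 70.1 CPM (log2 ratio -1.49, -1.51 to -1.46), and the share of barcodes with a UMI at 5000 UMIs from 56.5% to 26.2%. At 2000 UMIs 7.37% of B-like and 31.4% of kept barcodes had a Tcrg-C1 UMI in DN3b γδ−, and 2.65% and 13.5% in DN4 γδ−. Tcrg-C4 fell from 150.3 to 56.7 CPM (-1.41) and the variable segment Trgv2 from 117 to 56.6 CPM (-1.05), while Tcrg-C2 had 144 and 267 CPM (-0.89). These constant regions resemble each other in sequence, so their counts may share reads. DN3a was higher in each, at 472, 300.3, 221 and 689.9 CPM. Summed over all γ variable segments the level was 64.2 CPM in DN4 γδ− and 132 CPM in DN3b γδ−.

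For the other TCR chains the differences were smaller or upward. Trdc, the δ constant region, had 222 CPM in DN4 γδ− and 202 CPM in DN3b γδ− (0.14, 0.12 to 0.16), against 1015 and 1840 CPM in the DN3b and DN4 γδ+ libraries. Of 6 genes that mark γδ T cells, Trdc and Maf were higher in DN4 γδ−, and the sum was 306 and 414 CPM. Trbc1 (1504 and 1281 CPM) and Trbc2 (2465 and 2134 CPM), the β constant regions, differed by 0.23 and 0.21. The variable segments of the β locus summed to 24.6 and 16.2 CPM, those of the α locus to 6.31 and 2.69 CPM and those of the δ locus to 5.20 and 1.65 CPM. Trac, the α constant region, was under the level limit at 15.9 and 5.33 CPM (1.57, 1.49 to 1.66), with 1.18 CPM in DN3a. Over the 12 recombination and TCR chain genes compared, 2 fell, 0 rose and the median was -0.15.

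**Figure D2:**
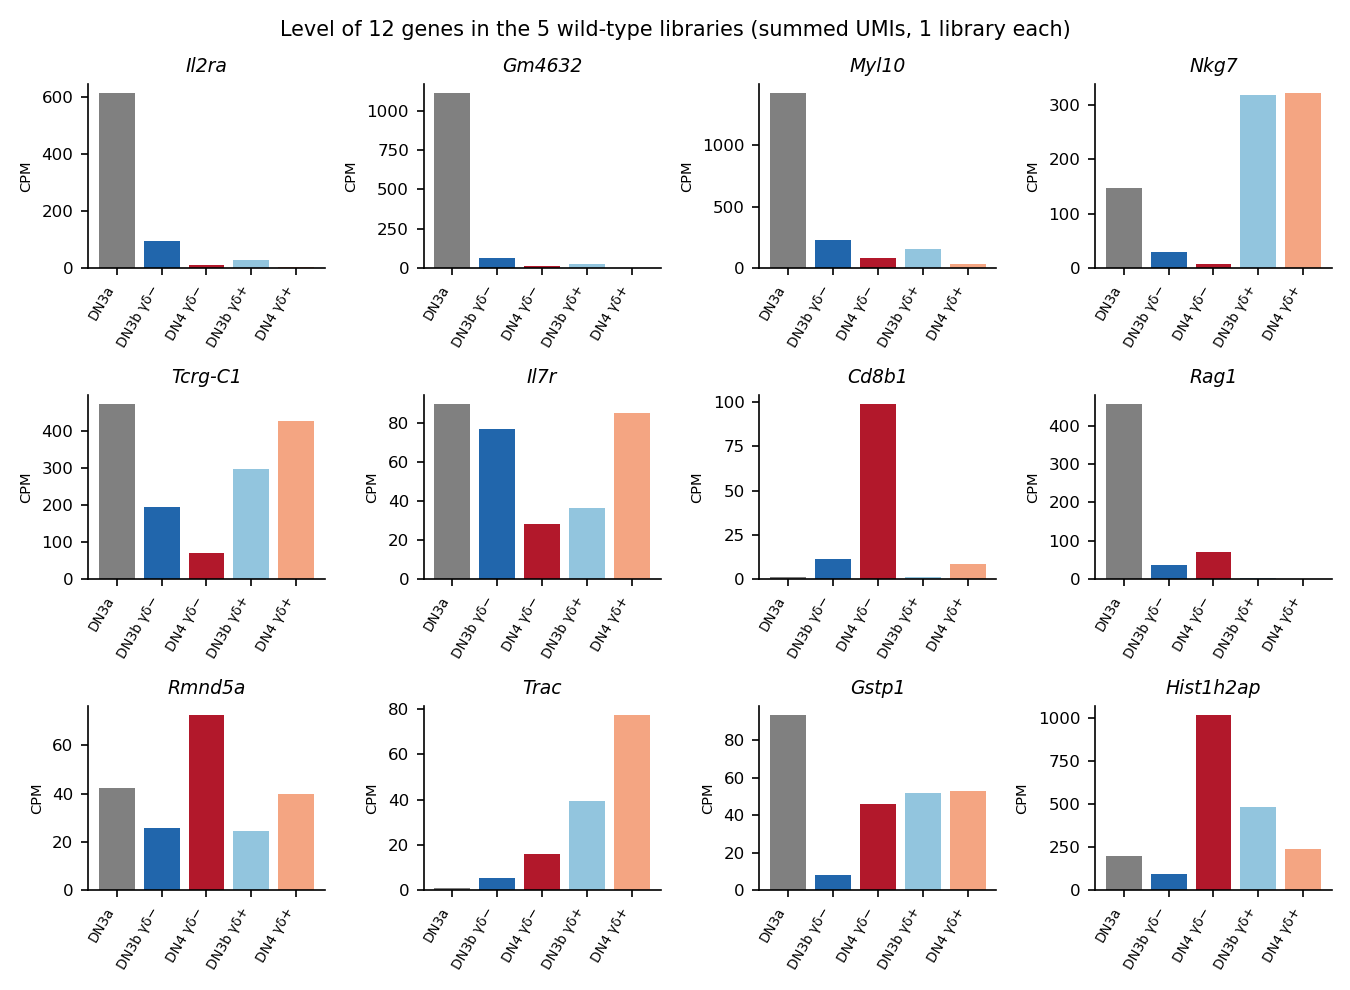
CPM of 12 genes (y axes, from 0, each on its own scale) in the 5 wild-type libraries (x axis), 1 library per bar. In the αβ path Il2ra, Gm4632 and Myl10 step down from DN3a through DN3b γδ− to DN4 γδ−, Cd8b1 is high in DN4 γδ− alone (98.6 CPM, against at most 11.6 CPM elsewhere), and for Gstp1 and Hist1h2ap the DN3b γδ− library is the lowest of the 5.

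TCR signalling genes stayed within 2-fold, as most genes did. Of 19 CD3 and proximal signalling genes compared, 0 passed 2-fold, against 0.429% higher and 0.682% lower of all genes. Past 1.5-fold, 4 of the 19 were lower, against 6.26% of all genes. Their median was -0.34, against -0.11 for all genes. Cd3e had 280 and 446 CPM (-0.67, -0.69 to -0.66), the kinase Lck 336 and 473 CPM (-0.49), the adaptor Lat 357 and 468 CPM (-0.39), and the exchange factor Vav1 30.04 and 48.8 CPM (-0.70). In contrast Cd3d (479 and 477 CPM), Cd3g (728 and 730.1 CPM) and Cd247 (77.1 and 78.5 CPM) differed by 0.01, -0.01 and -0.03. Zap70 stood at 39.4 and 46.7 CPM (-0.25), above its DN3a level of 14.47 CPM. The B-like barcodes gave a median of -0.32 for the 11 of these genes that could be measured there.

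Several lowered genes of other kinds were also highest in DN3a. Myl10, a myosin light chain gene, fell from 229.9 to 84.6 CPM (log2 ratio -1.44, -1.46 to -1.42) after 1419 CPM in DN3a. Gm4632, an antisense RNA on mm10 chromosome 14 (79178894 to 79199190), fell from 65.5 to 14.4 CPM (-2.19, -2.24 to -2.13) after 1110 CPM. The antisense RNAs 5830418P13Rik (24.8 to 9.72 CPM) and Gm17590 (34.99 to 12.8 CPM) and the aldo-keto reductase gene Akr1c13 (35.6 to 13.0 CPM) fell by 1.35, 1.45 and 1.46 on the log2 scale. Gm17590 lies within the coordinates of Cdk6 on the opposite strand, and Cdk6 itself stood at 283 and 441 CPM (-0.64). Mcub, a subunit that restrains mitochondrial calcium uptake, fell from 79.7 to 31.8 CPM, and Tmem121 from 97.3 to 41.5 CPM. Ifitm2, an antiviral membrane protein gene, fell from 64.2 to 25.8 CPM and was 1 of 4 interferon-stimulated genes compared, the other 3 lying between -0.20 and -0.01. Across the 35 lowered genes, DN3a was the highest of the 5 wild-type libraries for 16, DN4 γδ− the lowest for 22 and DN3b γδ− the highest for 8. Over all 5131 genes these shares were 21.8%, 20.2% and 31.01%, and choosing genes low in DN4 γδ− itself favours DN4 γδ− being lowest.

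Nkg7, a granule protein gene of cytotoxic lymphocytes, fell from 30.3 to 7.21 CPM (-2.07, -2.14 to -1.997), but was far higher in both γδ+ libraries, at 318 and 321 CPM. The mitochondrial aldehyde dehydrogenase gene Aldh1b1 fell from 29.5 to 10.8 CPM (-1.46, and -2.85 with the B-like CPM subtracted). Cenpb, which encodes a centromere protein, fell from 52.4 to 17.8 CPM (-1.56, but 4.05 with the B-like CPM subtracted), and here DN3b γδ− was the highest of the 5 libraries, the next being DN3b γδ+ at 25.8 CPM.

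A survival gene and a class I gene fell as well. Bcl2, the anti-apoptotic gene, fell from 80.8 to 26.3 CPM (-1.62, -1.66 to -1.58), and it was the 1 gene of 8 compared in the survival and death list that passed 2-fold, with a median of -0.20. H2-Q7 fell from 32.4 to 14.2 CPM (-1.20), but was under 2-fold in G1 barcodes (-0.63, against -1.48 in S and -1.42 in G2M). The class I genes H2-K1 (108 and 178 CPM) and H2-D1 (106 and 164 CPM) stood at -0.72 and -0.63, with a median of -0.36 over 11 class I presentation genes. Bcl2, H2-Q7, H2-K1 and H2-D1 all had a higher CPM in B-like than in kept barcodes. The Bcl2 ratio in B-like barcodes was itself -1.31 (-1.93 to -0.74), from 73.0 and 182 CPM, and subtracting the B-like ratio left -0.31. The part of the libraries in the fall of Bcl2 was not tested.

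Most barcodes of both subsets were called S or G2M. Phases came from S and G2M gene scores on barcodes thinned to 5000 UMIs, and 72.2% (71.4 to 73.0) of DN4 γδ− and 75.8% (75.1 to 76.4) of DN3b γδ− barcodes were in S or G2M. In DN4 γδ− 27.8% were in G1, 27.6% in S and 44.6% in G2M, and in DN3b γδ− 24.2%, 28.99% and 46.8%. At 2000 UMIs, 66.6% and 69.1% of kept barcodes but 7.08% (3.11 to 13.5) of 113 and 1.38% (0.286 to 3.99) of 217 B-like barcodes were so called. The calls read whatever free RNA a barcode holds, and its part in the difference between the subsets was not tested.

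Division genes had list medians near the -0.11 of all genes. Of 29 mitosis genes compared, 0 passed 2-fold, and the median was -0.06. The proliferation marker Mki67 had 341 and 366 CPM (-0.10). Of 42 DNA replication genes, 1 rose, 0 fell and the median was -0.11. The riser was Rpa3, the small subunit of the single-strand binding complex, from 49.0 to 155 CPM (1.66, 1.63 to 1.68), whereas its partner subunits Rpa1 and Rpa2 stood at -0.12 and -0.54. Pcna, the polymerase clamp, had 528 and 322 CPM (0.71), a ratio that turned to -0.21 once the B-like log2 ratio was subtracted. The helicase gene Mcm7 (-0.65) and the transcription factor gene E2f1 (-0.85) lay at the other end. Among G1 regulators Ccnd2, the D-type cyclin of early DN cells, fell from 124 to 54.9 CPM (-1.17, -1.20 to -1.14), while Ccnd3, the D cyclin needed for β selection, had 222 and 309 CPM (-0.48, and -1.30 with the B-like CPM subtracted). In DN3a Ccnd2 (306 CPM) exceeded Ccnd3 (132 CPM), although levels of different genes from 3' counts are only roughly comparable. With Ccnd2 as the 1 gene past 2-fold, the 10 G1 cyclins and inhibitors compared had a median of -0.14.

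Since the subsets differ slightly in phase, the ratios were taken again among barcodes of 1 phase. Cd8b1 had log2 ratios of 2.99 in G1, 3.37 in S and 2.997 in G2M, and Il2ra had -2.66, -3.16 and -3.10. Il7r stood at -1.24, -1.46 and -1.52, and Tcrg-C1 at -1.34, -1.53 and -1.57. Gm4632 varied more, at -1.497 in G1, -2.69 in S and -2.93 in G2M. In DN4 γδ− the level of Gm4632 was 35.9 CPM in G1 barcodes and 6.86 CPM in G2M barcodes, and in DN3b γδ− it was 101.4 and 52.2 CPM. Ccnd2 was under 2-fold in G1 (-0.95) and past it in S (-1.14) and G2M (-1.36). Whether these phases differ beyond replicate error cannot be told with 1 library each.

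Replication-dependent histone genes held the largest increase apart from Pth. Hist1h2ap (mm10 chromosome 13, 21833026 to 21833507), which encodes an H2A histone, stood at 1019 CPM in DN4 γδ− and 95.7 CPM in DN3b γδ−, 10.6-fold higher (log2 ratio 3.41, 3.40 to 3.43). A UMI was found in 89.4% (88.8 to 89.9) and 33.7% (33.02 to 34.4) of barcodes at 5000 UMIs. Hist1h2ae rose from 125 to 344 CPM (1.46) and Hist1h4h from 15.2 to 43.2 CPM (1.505). These were 3 of 21 histone genes compared, 0 fell and the median was 0.17, with Hist1h4d (115 and 196 CPM, -0.77) and the H1 gene Hist1h1b (289 and 382 CPM, -0.41) at the low end. Histone genes are near-identical in their coding parts, so counting could have moved reads between copies. The Hist1h2ap ratio was 3.47 in G1, 3.49 in S and 3.40 in G2M.

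Hist1h2ap was also higher in the B-like barcodes of DN4 γδ−. B-like barcodes held 226 CPM in DN4 γδ− and 13.0 CPM in DN3b γδ−, from 96 and 9 UMIs, a log2 ratio of 4.12 (3.14 to 5.30). At 2000 UMIs 38.1% of B-like barcodes in DN4 γδ− and 3.23% in DN3b γδ− had a UMI, against 71.6% and 15.7% of kept barcodes. The DN3b γδ− library had the lowest Hist1h2ap level of the 5 wild-type libraries, and the others held 199 CPM (DN3a), 483 CPM (DN3b γδ+) and 239 CPM (DN4 γδ+). T-cell markers in B-like barcodes reached 23.1% of their level in kept barcodes in DN4 γδ− and 15.4% in DN3b γδ−, so the B-like values also hold thymocyte RNA.

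Other raised genes also had more CPM in B-like barcodes of DN4 γδ− than in those of DN3b γδ−. The part of thymocyte RNA in these B-like values, those of Hist1h2ap included, was not tested. Gm10076, a short non-coding RNA gene, rose from 130.1 to 714 CPM (2.46) and in B-like barcodes from 88.0 to 589 CPM (2.74, 2.33 to 3.17). Erh, an mRNA-processing factor, rose from 82.8 to 249 CPM (1.59), and Hmgn2, a nucleosome-binding protein gene, from 272 to 605 CPM (1.15), with B-like ratios of 2.14 (1.31 to 3.04) and 2.01 (1.42 to 2.62). Rpl35 rose from 891 to 2065 CPM (1.21) and was the 1 gene past 2-fold among 84 cytosolic ribosomal protein genes, with 1.60 (1.44 to 1.75) in B-like barcodes. The non-coding Gm42418 (513 to 1038 CPM) and AY036118 (42.1 to 201 CPM), which overlap on mm10 chromosome 17, rose by 1.02 and 2.25. Of the 11 raised genes with at least 60 B-like UMIs over both libraries together, 10 were past 2-fold the same way in B-like barcodes. So were 1.29% of all 2098 genes with such a ratio. A gene can reach 60 UMIs through the library where it is high. The limit thus favours genes changed the same way in B-like barcodes, and nothing further is read from such counts. The exception among the 11 was Glcci1, a glucocorticoid-induced gene (10.6 to 26.4 CPM, 1.31), with -0.44 (-1.30 to 0.38) in B-like barcodes. Of the 9 lowered genes with such a ratio, 8 were lower in B-like barcodes of DN4 γδ− too, and 3 of them, Bcl2, B4galnt1 and Grk6, past 2-fold, against 56.8% and 3.72% of the 2098. In 13 of the 22 raised genes DN3b γδ− was the lowest of the 5 wild-type libraries, and in 17 DN4 γδ− was the highest. Over all genes compared these shares were 12.3% and 11.1%. A choice of genes high in DN4 γδ− and low in DN3b γδ− favours both places.

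Gstp1 and Rpa3 had too few B-like UMIs for a ratio. Gstp1, a glutathione transferase, rose from 8.19 to 46.2 CPM (log2 ratio 2.50, 2.44 to 2.56, and 4.93 with the B-like CPM subtracted), with 93.5, 52.0 and 53.0 CPM in DN3a, DN3b γδ+ and DN4 γδ+. A Gstp1 UMI was present in 20.6% (19.9 to 21.4) and 3.93% (3.65 to 4.23) of barcodes at 5000 UMIs. At 2000 UMIs 1.60% of kept and 1.84% of B-like barcodes of DN3b γδ− had one, so that the DN3b γδ− share is at background, against 8.45% and 1.77% in DN4 γδ−. Hmga1, a chromatin protein gene, rose from 13.3 to 38.1 CPM (1.52), and was at 22.2, 21.3 and 17.8 CPM in those 3 libraries. Gstp1, Rpa3 and Hmga1 were each lowest in DN3b γδ−. For Rmnd5a, part of a ubiquitin ligase, DN3b γδ− was not the lowest library. Rmnd5a rose from 25.8 to 72.5 CPM (1.49, 1.45 to 1.53) and was highest in DN4 γδ−, as 17 of the 22 raised genes were. Rmnd5a lies at 71388634 to 71440637 on mm10 chromosome 6, near Cd8a (71373427 to 71379173) and Cd8b1. Tdrkh (15.9 to 32.7 CPM, 1.04), a Tudor-domain protein gene at 94413273 to 94434668 on chromosome 3, was highest in DN4 γδ− as well. With the B-like CPM subtracted the ratios of Rmnd5a and Tdrkh were 2.82 and 1.82. Ctsl, the lysosomal protease cathepsin L, rose from 21.3 to 44.8 CPM (1.07, and 1.95 with that subtraction), and DN3a (50.9 CPM) and DN4 γδ+ (55.9 CPM) were higher still.

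The ratios also varied with base composition. For 5128 genes, the GC content of the longest transcript was set against the log2 ratio in bins of 5 percentage points. The median was 0.02 for the 321 genes from 35 to 40% GC, -0.09 for the 1348 from 45 to 50% and -0.44 for the 134 from 60 to 65%. In B-like barcodes of the same libraries the medians in these bins were 0.00, -0.06 and -0.24, over the 157, 554 and 54 genes with a B-like ratio, for which kept barcodes gave 0.03, -0.05 and -0.33. For DN4 γδ+ over DN3b γδ+ they were -0.09, -0.15 and -0.18. Il7r has 40.5% GC, Il2ra 44.4% and Cd8b1 50.8%, while Tmem121 (63.4%) and Hist1h2ap (64.5%) lie in the bin from 60 to 65%. The part of this trend in single genes was not tested.

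**Figure D3:**
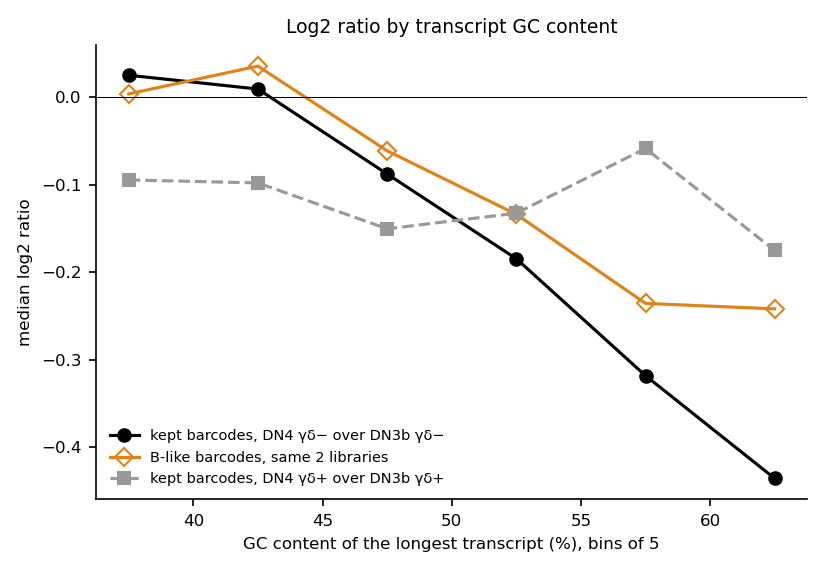
Median log2 ratio (y axis) in bins of transcript GC content (x axis, percent), from summed UMIs. Filled circles are kept barcodes of DN4 γδ− over DN3b γδ−, open diamonds B-like barcodes of the same libraries and squares DN4 γδ+ over DN3b γδ+. The circles run from 0.02 to -0.44 and the diamonds, over fewer genes, from 0.00 to -0.24 between the lowest and the highest bin drawn.

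Within each library, barcodes with and without Cd8b1 were then compared, so that both sides come from 1 library. Barcodes were thinned to 10000 UMIs, leaving 10632 of DN4 γδ− and 15990 of DN3b γδ− after 1354 and 1969 shallower ones were left out. In DN4 γδ− 51.3% had 0 Cd8b1 UMIs, 23.8% had 1, 11.6% had 2 and 13.3% had 3 or more. In DN3b γδ− 91.3% had 0 and 0.538%, or 86 barcodes, had 3 or more. These are cells of 1 library each, so the intervals again cover counting only.

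Il2ra and Rag1 were ordered along these classes in both libraries. In DN4 γδ− the share with an Il2ra UMI was 11.3%, 8.16%, 7.22% and 4.02% from 0 to 3 or more Cd8b1 UMIs, and in DN3b γδ− it was 52.5%, 43.1%, 36.9% and 29.1%. Rag1 went the other way, with 33.9%, 42.0%, 46.3% and 55.1% in DN4 γδ− and 21.95%, 33.8%, 44.4% and 46.5% in DN3b γδ−. The Il2ra share of DN4 γδ− was not separable from background at the lower depth given above. No B-like share is given at the present depth, so no difference is read from the Il2ra order in DN4 γδ−. Tcrg-C1 was found in 48.0% and 25.6% of the classes with 0 and with 3 or more Cd8b1 UMIs in DN4 γδ− and in 76.8% and in 43 of 86 barcodes in DN3b γδ−. Mki67 was found in 79.7% and 81.5% in DN4 γδ− and in 82.45% and 77.9% in DN3b γδ−. Gstp1 was found in 37.8% and 33.3% of these classes in DN4 γδ−. Other genes were not ordered in DN3b γδ−, where Il7r had 47.9%, 42.7%, 36.4% and 39.5% and Ptcra 36.7%, 42.1%, 53.03% and 52.3%.

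The 15 most lowered genes between libraries were taken here without genes that had more CPM in B-like barcodes, such as Bcl2 and Grk6. Of these 15, 13 were also lower in barcodes with Cd8b1 within DN4 γδ− and 14 within DN3b γδ−, their intervals lying below 0, as they did for 20.9% and 18.4% of all 5130 genes compared. The ratio was -0.87 (-1.05 to -0.70) in DN4 γδ− and -0.56 (-0.66 to -0.46) in DN3b γδ− for Il2ra, -0.66 and -0.58 for Tcrg-C1, -0.91 and -1.29 for Nkg7, and -0.51 and -0.28 for Il7r. Il2ra is counted among the 13, but its DN4 γδ− share was not separable from background, as given above. No difference is therefore read from the Il2ra value in DN4 γδ−. Cenpb was the one gene whose interval covered 0 in both libraries (-0.02, -0.15 to 0.11, and -0.08, -0.19 to 0.03). Outside these 15, Bcl2 had -0.51 and -0.75, and Grk6 had 0.06 (-0.05 to 0.16) and -0.06 (-0.16 to 0.03).

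The raised genes were mixed. The 14 most raised genes other than Cd8b1 were taken by the same rule. Of these, 5 had intervals above 0 within DN4 γδ− and 4 within DN3b γδ−, against 13.2% and 9.73% of all genes. In each library 2 had intervals below 0. Rmnd5a (0.83, 0.76 to 0.90, and 0.66, 0.53 to 0.80), Ctsl (0.30 and 0.34), Tdrkh (0.22 and 0.58) and Hmgn2 (0.15 and 0.06) were higher in both libraries, as was Glcci1 (0.75 and 0.73) outside the 14. The intervals of Hist1h2ap (-0.02 and -0.15) and Gstp1 (-0.11 and -0.37) lay below 0 in both, but Gstp1 was at background in DN3b γδ−, as given above, so no difference is read from its value there. Gm10076, Erh, Hmga1, Hist1h4h, Hist1h2ae, Pfdn4 and 0610009B22Rik had intervals that covered 0 in both libraries, and Rpa3 was above 0 in DN4 γδ− alone (0.08). Rag1 had 0.61 and 0.91 and Ptcra 0.26 and 0.48, although Ptcra did not differ between the libraries.

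**Figure D4:**
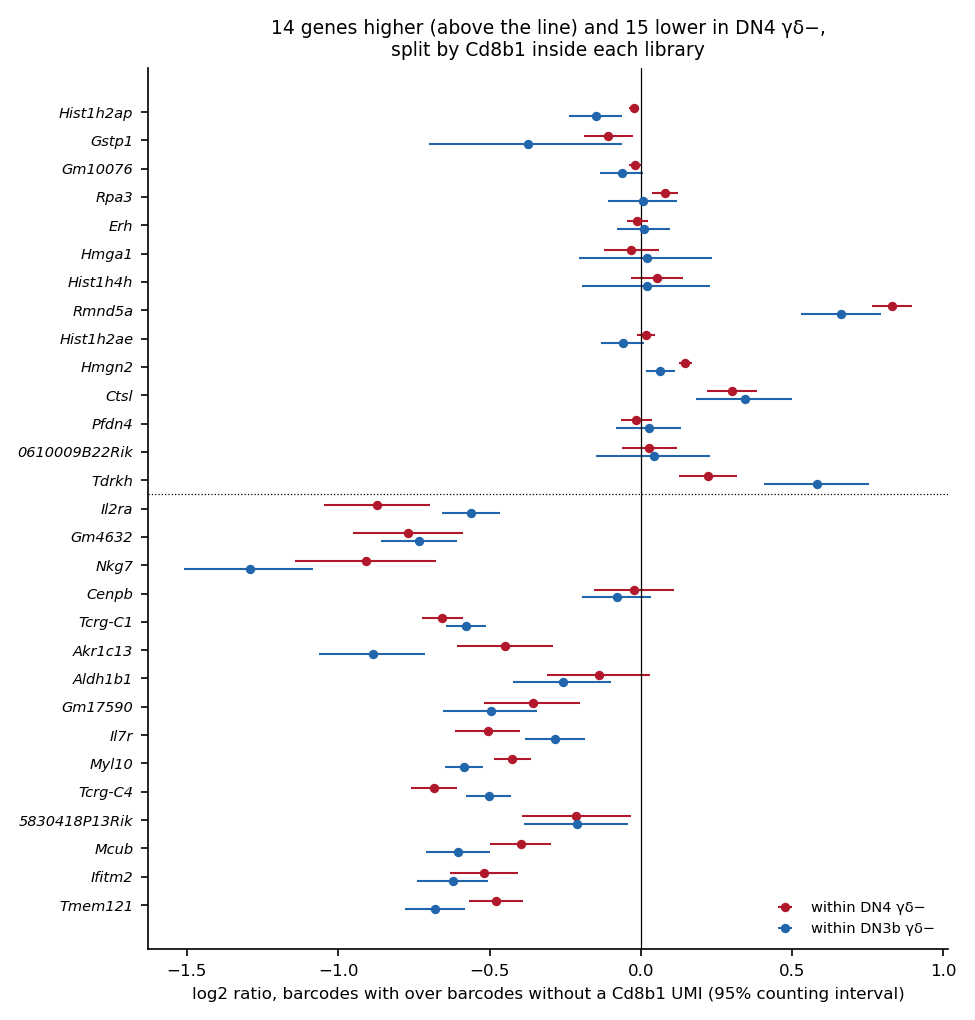
Log2 ratio of CPM in barcodes with over barcodes without a Cd8b1 UMI (x axis), at 10000 UMIs per barcode, within DN4 γδ− (red) and within DN3b γδ− (blue), for the 14 genes most raised and the 15 most lowered between the libraries (y axis). Points are ratios of summed UMIs and bars are exact 95% counting intervals. Most lowered genes lie left of 0 in both libraries, while of the raised genes Rmnd5a, Ctsl, Tdrkh and Hmgn2 lie right of 0 and Gstp1 and Hist1h2ap left of 0 in both, Gstp1 being at background in DN3b γδ−. The Il2ra share of DN4 γδ− was not separable from background, and no difference is read from the Hist1h2ap value in DN4 γδ− (-0.02).

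Metabolic and housekeeping groups, like most genes compared, stayed within 2-fold apart from Rpl35. Of 13 glycolysis genes, 0 passed it and the median was -0.32, with the enzyme genes Gpi1 (185 and 289 CPM, -0.64) and Pkm (343 and 519 CPM, -0.60) at the low end and Eno1 (97.3 and 68.2 CPM, 0.51) at the high end. The medians were -0.22 for 29 ribosome biogenesis genes, -0.29 for 17 aminoacyl-tRNA synthetases and -0.07 for 18 sterol and fatty-acid synthesis genes, and 0 of them passed. They were 0.05 for 84 cytosolic ribosomal protein genes, 0.00 for 77 mitochondrial ones, 0.05 for 74 nuclear subunits of oxidative phosphorylation and 0.07 for 38 proteasome subunits. Nutrient genes included Tfrc, the gene of the sorting marker CD71, at -0.07, and the 12 genes of the Myc and nutrient uptake list had a median of -0.15. Dissociation and stress genes had a median of 0.25 over 9 genes, from Jun (-0.73) to Fos (0.48).

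**Figure D5:**
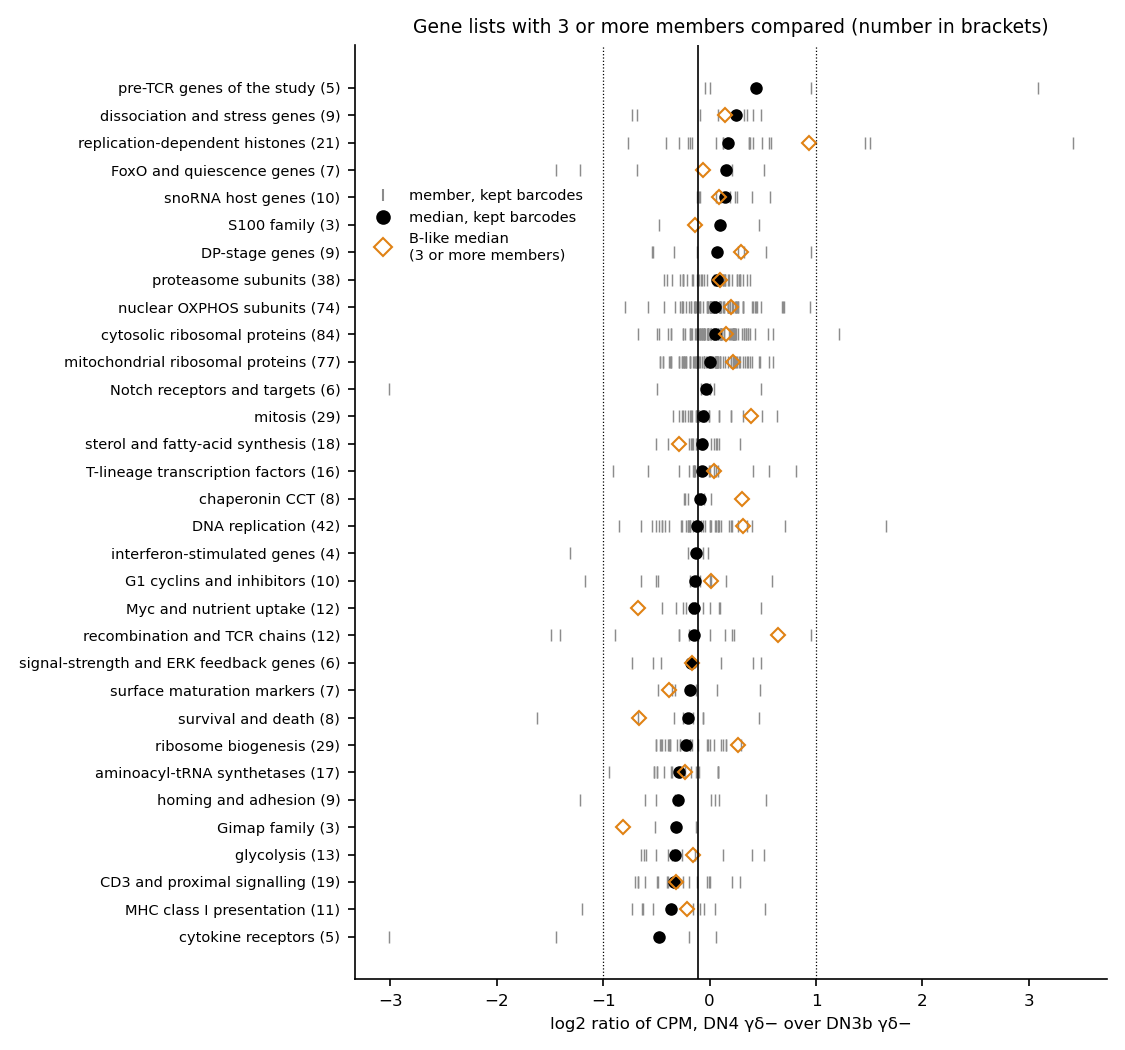
Log2 ratio of CPM, DN4 γδ− over DN3b γδ− (x axis), for gene lists with at least 3 members compared (y axis, number of members compared in brackets). Ticks are genes, filled circles list medians in kept barcodes, open diamonds medians in B-like barcodes where at least 3 members had a ratio, dotted lines mark 2-fold and the solid line the median of all genes (-0.11). List medians lie between -0.47 and 0.44, and single genes past the dotted lines are few.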

How the data were processed

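Libraries were 10x Genomics 3' v3. The authors deposited UMI counts per gene and barcode on mm10 with an added Trdc reporter feature. Per the file headers Cell Ranger 4.0.0 wrote them, while the submitters' notes give 5.0.1. The study removed doublets by scatter at the sort and dropped clusters of B-cell and T-cell doublets, and no caller was run here. UMIs were summed per gene and library with python 3.11.15, numpy 2.4.6 and scipy 1.17.1, divided by the total and compared without a test. Genes without mt- names and with at least 20 CPM in 1 library were compared. A count of 0 entered as 3. Gene positions and GC content came from GENCODE annotation of mm10. Named genes were the 15 highest and 15 lowest past 2-fold with at least 10 UMIs per library, leaving out those for ribosomal proteins and those with more CPM in B-like barcodes, plus leading and 2-fold members of each list. Med30, Kctd2, Pth, B4galnt1, Grk6, Gm42418, AY036118 and some list members were named after their values were seen. Members and lists were chosen with earlier results of these data known. The calculation was checked on simulated counts for this comparison over 4934 genes: 100 of 100 genes changed 3-fold were called, 0 changed 1.5-fold and 0 unchanged were, and intervals covered the true ratio for 95.7% of genes. The simulated counts held counting error only, so the check covers the arithmetic and not differences between libraries, free RNA or base composition. Alternatives were other scalings (TMM, edgeR 4.0.16), barcode filters, CPM limits, folds, phases, depth and subtraction of B-like levels. Those using the B-like log2 ratio, the GC trend, barcodes without shared ones, and depths of 2000 and 10000 UMIs were chosen after seeing the data. Results for some genes are not reported here.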

Additional observations from a re-analysis of the deposited data

Results flagged for a closer look

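Hist1h2ap and Il7r moved in opposite directions along the αβ and γδ paths. Hist1h2ap had a log2 ratio of 3.41 for DN4 γδ− over DN3b γδ− and of -1.02 (-1.04 to -0.99) for DN4 γδ+ over DN3b γδ+. Il7r had -1.45 and 1.23. Along the γδ path the replication-dependent histones had a median of -0.58 and the DNA replication genes of -1.30, against 0.17 and -0.11 along the αβ path. The part of the cell cycle in the Hist1h2ap values was not tested. Each path has 1 library per stage, and the difference between the paths was not tested.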

How the results depend on the processing

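No paired analysis was possible because each group is 1 library and the result comes from no test. Leaving out a replicate was impossible for the same reason. Against 57 genes past 2-fold (22 higher, 35 lower), a total without mitochondrial and ribosomal-protein genes gave 38 higher. Subtracting the B-like CPM gave 392 (141 higher, 251 lower) of 2192 genes, where small remainders make large ratios. Subtracting the B-like log2 ratio left 16 lower and 22 higher of 2098 genes, with 1 of 11 raised and 2 of 9 lowered genes still past 2-fold. Subtracting the GC trend of the B-like barcodes left 21 lower. A limit of 5 CPM gave 139 (45 higher, 94 lower), no limit 3068 (2098 higher, 970 lower), and 1.5-fold 403 (82 higher, 1.60%, and 321 lower, 6.26%). The share of higher among the calls was 38.6%, and 52.7% with TMM (29 higher, 26 lower), 49.4% with that smaller total, 57.9% and 57.1% after the B-like ratio or GC trend was subtracted, and 50.8% in G1 barcodes. Under the B-like ratio Hist1h2ap (-0.71), Gm10076 (-0.29), Erh (-0.56), Hist1h2ae (-0.44) and Hmgn2 (-0.85) reversed, and Cenpb (4.05) reversed under the B-like CPM. The B-like intervals of Hist1h2ap, Gm10076 and Erh hold their ratios in kept barcodes, so no direction is read from these reversals. B-like barcodes also hold thymocyte RNA, so subtracting their ratio can cancel a difference between the thymocytes themselves. Of named genes under 2-fold, Pcna, Tcf7, Themis, Notch1, Gata3, Ptcra, Spats2 and Tfrc changed sign under at least 1 alternative, as did several list medians, so that no direction is read from those. Shares in S or G2M scored from all UMIs were 78.2% and 81.7%. For 35 named genes past 2-fold, 525 of 531 alternative values kept the direction and 510 stayed past 2-fold, in 21 genes under every alternative. Most alternatives filter or rescale the same 2 libraries, so these counts cannot separate a library difference from a subset difference. Cd8b1 ran from 2.99 to 3.37 and Il2ra from -3.16 to -2.66. The cause of these moves was not tested. Depth limits genes of few UMIs most, such as Cd4, and the small B-like sets.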

Other observations

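Parathyroid hormone RNA was found in the DN4 γδ− library. Pth had 5343 UMIs in 79 of its kept barcodes and 0 in DN3b γδ−, and 5262 of them came from 1 barcode with 14931 UMIs in all. That barcode also held 981 UMIs of Chga and 18 of Epcam, genes of endocrine and epithelial cells, and 5 UMIs of the T-cell markers. The remaining 81 Pth UMIs were spread over the other barcodes, with at most 4 in any of them.

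Barcodes with fewer than 5 T-cell marker UMIs numbered 39 (0.325%) in DN4 γδ− and 4 (0.0223%) in DN3b γδ−. In DN4 γδ− these 39 held 1052 of 3290 UMIs of Ccl21a, a chemokine of thymic epithelium, 740 of 1784 of Dcn, a matrix gene of fibroblasts, 1030 of 3211 of Gsn and 1180 of 3473 of Cd74, the class II invariant chain. In DN3b γδ− the 4 held 19 of 94 Ccl21a, 0 of 3 Dcn and 103 of 1318 Cd74 UMIs.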
